A study of Homo sapiens with 27 samples.

Results

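The genes described here are 42 genes of the integrated stress response and the unfolded protein response, out of 60619 genes counted in REH cells. They were chosen as known targets or components of the ATF4, CHOP, XBP1 and ATF6 branches and not by a threshold on a measured value. Earlier results of these data were known when they were chosen. REH is an established line of B-cell precursor acute lymphoblastic leukemia with the ETV6/RUNX1 fusion. The study asked what changes in these cells when 4 lncRNAs are lowered with LNA GapmeRs, antisense oligonucleotides with locked bases at their ends that direct RNase H to a paired RNA. RNA was sequenced from 27 cultures in 10 groups, 72 h after the start of treatment.

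All groups were REH cells and differed only in what was added. Medium alone had 2 samples (replicates 1 and 2) and a non-targeting GapmeR (NTC) had 3, which together are the 5 controls. GapmeRs were given at 10 µM without a transfection reagent. GapmeR1 and GapmeR2 against lnc-RTN4R-1 had 3 samples each, as did GapmeR1 and GapmeR2 against lnc-TIMM21-5. For lnc-NKX2-3-1, GapmeR1 had 2 samples (replicates 1 and 2) and GapmeR2 had 3. For lnc-ASTN1-1, GapmeR1 had 3 samples and GapmeR2 had 2 (replicates 1 and 3). Per the study's methods the replicates of the treatment were done on different days, and the replicate numbers come from the labels.

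Cells slow protein synthesis and change transcription when the endoplasmic reticulum (ER) fills with unfolded proteins or when amino acids run short. The ER sensors are PERK (gene EIF2AK3), IRE1α (gene ERN1) and ATF6. PERK and related kinases phosphorylate eIF2α, which favours translation of the factor ATF4, IRE1α splices XBP1 mRNA into an active factor, and ATF6 is cut to free its own. ATF4 and its target CHOP (gene DDIT3) drive amino acid synthesis and transport genes and feedback genes, whereas XBP1 and ATF6 drive ER chaperones and the machinery of ER-associated degradation. Splicing, phosphorylation and cleavage are not read by gene counts, so the values below are mRNA levels only.

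Total counts per sample were 14627110 to 22750945, and at least 71.5% of reads were assigned to a gene. Each targeted lncRNA was lower in every sample given its own GapmeRs (6 samples each for lnc-TIMM21-5 and lnc-RTN4R-1, 5 each for lnc-ASTN1-1 and lnc-NKX2-3-1) than in every control. Counts were 0 to 4 per treated sample for lnc-NKX2-3-1 (6 to 23 in the controls) and 1 to 10 for lnc-TIMM21-5 (20 to 40). Levels are given as CPM, counts scaled to library size with TMM factors. With its GapmeRs lnc-RTN4R-1 was at 3.41 to 6.5 CPM, against 18.3 to 24.4 CPM in the controls. The smaller drop of lnc-ASTN1-1 was to 9.69 to 14.5 CPM, against 23.2 to 26.9 CPM. Of 10 markers of B-cell precursors 9 were detected (VPREB1 was at 0), with a summed level of 3426 to 4304 CPM. The summed level of 5 T-cell markers was at most 0.583 CPM and that of 5 erythroid markers at most 0.057 CPM. In RNA from whole cultures, fewer cells that express a gene and less of its RNA per cell cannot be told apart.

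Of the 42 genes, 40 had enough counts to be tested. CBS, a transsulfuration enzyme, was at 0 counts in all 27 samples, and since it has a near-identical copy in the genome build its reads may have gone uncounted. NUPR1, a stress-induced nuclear protein, had 0 to 10 counts. The levels of the others differed widely. Per kilobase of exon in the controls, ATF4 was highest at 252 CPM per kb, followed by SLC7A5 (the large neutral amino acid transporter LAT1) at 238 CPM per kb and EDEM1, which steers misfolded glycoproteins to degradation, at 125 CPM per kb. HSPA5, the abundant ER chaperone BiP, was lower, at 52.1 CPM per kb. The length used was the union of all annotated exons of a gene (6530 bases for HSPA5, 4764 for SLC7A5). It is not the length of a single transcript, so this order depends on the annotation. ERN1 was at 2.72 CPM per kb and CTH, another transsulfuration enzyme, at 1.5 CPM per kb. STC2, a secreted glycoprotein, was at 0.521 CPM per kb and ALDH1L2, a mitochondrial folate enzyme, at 0.0953 CPM per kb, on 11 to 62 and 4 to 25 counts per sample. ATF4, PSPH, SLC7A5 and HSP90B1 have pseudogene copies, so their counts may be low.

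The promoters of some ER chaperone genes carry an ER stress response element (ERSE), here written as CCAAT, any 9 bases and CCACG, which ATF6 and XBP1 are known to bind. The core of the C/EBP-ATF response element bound by ATF4 was written as TGATGNAA. RefSeq promoters (GRCh38.p14, 250 bases before to 50 after the start) were found for 37 of the 42 genes, and both strands were searched. The following 4 were chosen among genes that hold such a match, with ASNS for the amino acid arm. HERPUD1 and DNAJB9, with the smallest adjusted p and the largest differences by replicate number below, held no exact match to the ERSE letters in the window searched. Shown are the 250 bases before the start of HSPA5 (chr9:125241344-125241593, minus strand), HSP90B1 (chr12:103930160-103930409, plus strand), CRELD2 (chr22:49918384-49918633, plus strand) and ASNS (chr7:97872409-97872658, minus strand). Capitals mark the ERSE in the first 3 (on either strand, and 2 of them in HSP90B1) and the TGATGNAA core in ASNS.
HSPA5: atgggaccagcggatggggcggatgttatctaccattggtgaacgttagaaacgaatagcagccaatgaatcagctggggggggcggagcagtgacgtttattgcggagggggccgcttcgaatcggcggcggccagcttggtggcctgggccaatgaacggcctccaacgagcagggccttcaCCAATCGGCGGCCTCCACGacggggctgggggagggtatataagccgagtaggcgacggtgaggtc
HSP90B1: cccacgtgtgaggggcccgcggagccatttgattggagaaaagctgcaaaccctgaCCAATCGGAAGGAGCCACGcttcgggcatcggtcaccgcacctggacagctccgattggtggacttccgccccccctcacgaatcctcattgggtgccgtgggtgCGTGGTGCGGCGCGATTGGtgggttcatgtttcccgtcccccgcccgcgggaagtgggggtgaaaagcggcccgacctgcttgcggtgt
CRELD2: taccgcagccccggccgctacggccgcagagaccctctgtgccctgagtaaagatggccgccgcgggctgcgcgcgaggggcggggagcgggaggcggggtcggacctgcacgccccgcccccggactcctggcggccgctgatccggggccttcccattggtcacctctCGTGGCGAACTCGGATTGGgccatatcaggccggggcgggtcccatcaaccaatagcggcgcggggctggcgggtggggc
ASNS: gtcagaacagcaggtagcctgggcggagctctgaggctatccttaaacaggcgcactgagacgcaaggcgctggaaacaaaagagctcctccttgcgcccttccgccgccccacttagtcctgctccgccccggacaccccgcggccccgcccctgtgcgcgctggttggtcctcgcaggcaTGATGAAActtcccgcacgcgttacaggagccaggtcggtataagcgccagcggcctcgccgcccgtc

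The ERSE letters were in 5 of the 37 promoters (13.5%; CALR, CRELD2, HSP90B1, HSPA5 and XBP1) and in 22 of all 27305 promoters (0.0806%). TGATGNAA was in 5 of 37 (13.5%; ASNS, ATF3, CHAC1, HERPUD1 and SLC3A2) and in 3.67% of all. The unfolded protein response element core TGACGTGG was in HYOU1 alone (2.7%) and in 0.795% of all promoters. Its first 6 letters, TGACGT, are part of the cyclic AMP response element, found in 5 of 37 (ATF6, CTH, HSPA5, HYOU1 and PPP1R15A) and in 8.32% of all. A match describes letters only, and the genes were picked as known targets, so these shares are not an independent finding.

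Most of the 40 tested genes differed by replicate number. ER chaperones, ER-associated degradation genes and secreted ER proteins were higher in the replicate 3 samples (n = 8) than in the average of replicates 1 (n = 10) and 2 (n = 9), and most of them were lower in replicate 2 than in replicate 1, with SYVN1, PDIA6 and STC2 not past the threshold there. In replicate 1, HSPA5 was at 314 CPM in the lowest sample, 413 at the median and 444 in the highest. In replicate 2 it was at 221, 273 and 330 CPM, and in replicate 3 at 519, 563 and 690 CPM. Every replicate 3 sample lay above all 19 others. With group as a covariate, HSPA5 was higher in replicate 3 than in replicates 1 and 2 by 0.81 on the log2 scale (SE 0.0457, edgeR adjusted p = 2.01e-11) and lower in replicate 2 than in replicate 1 (log2 difference -0.51, SE 0.0503, adjusted p = 7.99e-07). All differences given for replicate 3 are from the average of replicates 1 and 2, so a low replicate 2 raises them. The p-values measure the spread between libraries. The labels do not say that a number marks a shared day, and replicate number, day and culture cannot be told apart.

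**Figure D1:**
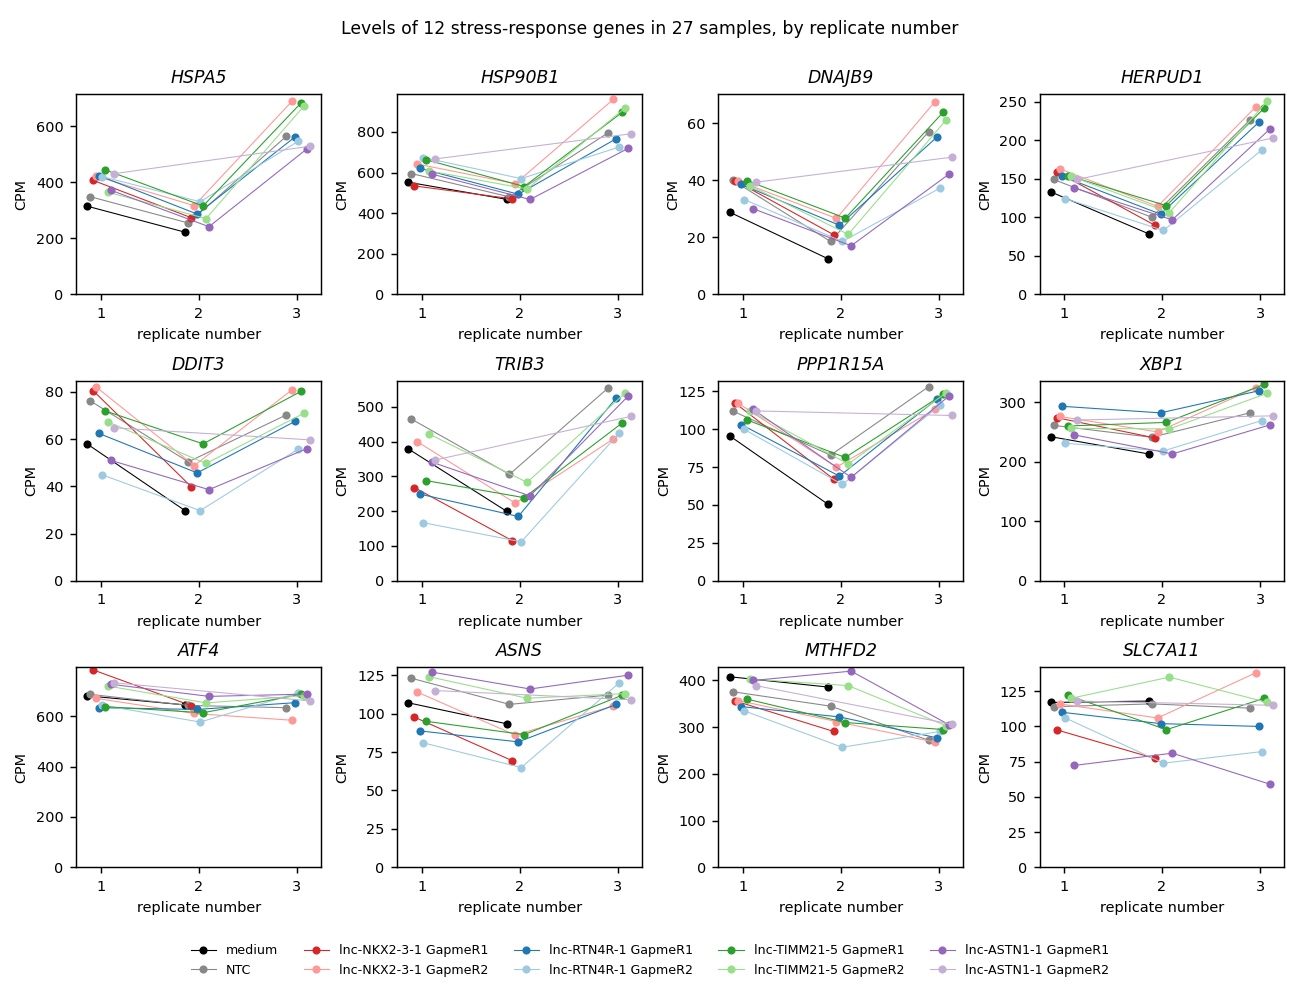
Levels of 12 of the genes (CPM, vertical axes) in each of the 27 samples, by replicate number (horizontal axes), with thin lines joining samples of 1 treatment group. HSPA5 lay at 519 to 690 CPM in replicate 3, at 314 to 444 in replicate 1 and at 221 to 330 in replicate 2.

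The other chaperones moved with HSPA5, and all 9 genes of that list were higher in replicate 3. DNAJB9 (ERdj4), a co-chaperone that holds back IRE1α, had a median of 56.1 CPM in replicate 3 (37.3 to 67.4), 38.9 in replicate 1 (28.8 to 40) and 20.9 in replicate 2 (12.5 to 26.7). The ranges of replicates 1 and 2 did not overlap, while replicate 3 reached into replicate 1. The log2 difference of replicate 3 was 0.93 (SE 0.0527, edgeR adjusted p = 4.88e-13) and that of replicate 2 against 1 was -0.84 (SE 0.0622, adjusted p = 1.03e-09). HSP90B1 (GRP94) was at 719 to 961 CPM in replicate 3 against 534 to 674 in replicate 1 and 467 to 570 in replicate 2, and DNAJC3 (p58IPK), which restrains PERK, at 67.5 to 97.1 against 51 to 64.5 and 42.4 to 53.2 CPM. HYOU1, a nucleotide exchange factor for BiP, was at 315 to 379 CPM in replicate 3 and at 203 to 278 CPM in the others. In each of these 3 genes every replicate 3 sample was above all others, with log2 differences of 0.52, 0.58 and 0.53 (edgeR adjusted p = 6.26e-12, 1.2e-16 and 3.55e-17).

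SDF2L1, a partner of BiP in chaperone complexes, had a median of 21 CPM in replicate 3 (16.1 to 24.4), 14.4 in replicate 1 (11.1 to 15.5) and 10.1 in replicate 2 (8.6 to 15.4), with a log2 difference of 0.63 for replicate 3 (SE 0.0542, edgeR adjusted p = 2.34e-12). PDIA4, a disulfide isomerase, was at 166 to 203 CPM in replicate 3 and at 111 to 152 CPM elsewhere (log2 difference 0.45, SE 0.0292, adjusted p = 1.67e-15). Neither gene overlapped between replicate 3 and the rest. The lectin chaperone CALR and the isomerase PDIA6 differed less, by 0.12 and 0.10 on the log2 scale (adjusted p = 4.91e-05 and 5.05e-05), and their ranges overlapped.

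ER-associated degradation genes were also higher in replicate 3. HERPUD1, a scaffold of the degradation complex, had a median of 224 CPM in replicate 3 (187 to 251), 151 in replicate 1 (124 to 163) and 100 in replicate 2 (78.4 to 115). The 3 ranges did not overlap. The log2 difference was 0.87 for replicate 3 (SE 0.0269, edgeR adjusted p = 7.53e-26) and -0.60 for replicate 2 against 1 (SE 0.0302, adjusted p = 7.75e-18), both the smallest adjusted p among the tested members. SYVN1 (the ubiquitin ligase HRD1) was at 108 to 122 CPM in replicate 3 and at 86.1 to 101 CPM in the others, and its adaptor SEL1L at 158 to 208 against 124 to 151 CPM. Their log2 differences were 0.33 and 0.39 (adjusted p = 4.77e-14 and 1.05e-14), without overlap. EDEM1 differed by 0.14 (adjusted p = 1.52e-06), with overlapping ranges. In replicate 2 against replicate 1, HERPUD1, SEL1L and EDEM1 were lower and SYVN1 was not past the threshold (log2 difference 0.05, adjusted p = 0.225).

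Among the secreted or ER-resident proteins, CRELD2 was at 44.4 to 55.8 CPM in replicate 3, above every other sample (28 to 41.8 CPM), with a log2 difference of 0.46 (SE 0.0348, edgeR adjusted p = 2.14e-14). MANF, a secreted protein released on ER stress, was at 28.5 to 39.8 CPM in replicate 3 and 19.8 to 29.9 CPM in the rest (log2 difference 0.43, adjusted p = 3.04e-11). STC2 was at 1.34 to 2.97 CPM in replicate 3 and 0.615 to 2.89 CPM in the rest (log2 difference 0.38, adjusted p = 0.0145), and it lost the call without replicate 3 of either lnc-RTN4R-1 GapmeR (adjusted p = 0.054 and 0.063).

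Of 9 sensors and transcription factors 7 were higher in replicate 3, while ATF4 and EIF2AK3 mRNA were not past the threshold. ERN1 was at 56.2 to 76.4 CPM in replicate 3, above all 19 other samples (30.6 to 53.8 CPM), with a log2 difference of 0.53 (SE 0.04, edgeR adjusted p = 9.23e-13). XBP1, ATF6, CEBPB and CEBPG, the last 2 being factors that pair with ATF4 or CHOP, were higher by 0.23, 0.18, 0.42 and 0.17 (adjusted p = 1.67e-10, 2.27e-06, 7.29e-05 and 6.24e-08), with overlapping ranges. ATF4 was at 584 to 693 CPM in replicate 3, 634 to 784 in replicate 1 and 577 to 679 in replicate 2. It differed by 0.01 in replicate 3 (adjusted p = 0.704) and by -0.13 in replicate 2 against 1 (SE 0.0284, adjusted p = 0.000995). EIF2AK3 was the single member higher in replicate 2 than in replicate 1 (127 to 165 against 107 to 147 CPM, log2 difference 0.22, adjusted p = 0.000486), and it was not past the threshold in replicate 3 (adjusted p = 0.955).

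The ATF4 and CHOP targets split. DDIT3 had a median of 68.9 CPM in replicate 3 (55.8 to 81), 66 in replicate 1 (44.9 to 82.1) and 45.7 in replicate 2 (29.6 to 58), with overlapping ranges. Replicate 2 was lower than replicate 1 (log2 difference -0.62, SE 0.0636, edgeR adjusted p = 1.19e-06). Replicate 3 differed from the average of the other numbers by 0.33 (adjusted p = 7.93e-05). Within groups DDIT3 in replicate 3 was above replicate 1 in 5 of 8 and above replicate 2 in 7 of 7. ATF3, another stress-induced factor, and PPP1R15A (GADD34), which guides removal of the phosphate from eIF2α, were lower in replicate 2 by -0.69 and -0.64 (adjusted p = 4.91e-08 and 5.67e-12). In replicate 3 they differed from the average of the others by 0.21 and 0.42 (adjusted p = 0.00321 and 1.97e-10), but ATF3 had a median of 41.4 CPM in replicate 3 and 46.9 in replicate 1 and was above replicate 1 in only 2 of 8 groups, and PPP1R15A was above it in 6 of 8. TRIB3, a pseudokinase that dampens ATF4 and CHOP, ranged from 112 CPM in a replicate 2 sample to 553 CPM in a replicate 3 sample, and differed by 0.89 (SE 0.114, adjusted p = 5.6e-06) and -0.67 (adjusted p = 0.00116). CHAC1, which degrades glutathione, was not past the threshold in either comparison (adjusted p = 0.0509 and 0.686).

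Of 9 amino acid and folate enzymes 2 were higher and 2 lower in replicate 3. The folate enzyme MTHFD2 was at 268 to 306 CPM in replicate 3 against 335 to 408 in replicate 1 and 257 to 420 in replicate 2, and was lower in replicate 3 (log2 difference -0.28, SE 0.0417, edgeR adjusted p = 7.61e-06). PSPH, the last enzyme of serine synthesis, was also lower (-0.20, adjusted p = 1.03e-05). These were the 2 members lower in replicate 3. PHGDH and PSAT1, the first steps of serine synthesis, had log2 differences of -0.15 each (adjusted p = 0.0761 and 0.0857), and SHMT2, CTH and PCK2 (mitochondrial PEPCK) had -0.03, -0.06 and -0.17 (adjusted p = 0.714, 0.58 and 0.0513). ASNS (asparagine synthetase) and ALDH1L2 were higher by 0.19 and 0.48 (adjusted p = 0.0262 and 0.0272). ASNS lost the call without replicate 3 of lnc-TIMM21-5 GapmeR1 (adjusted p = 0.061) or of lnc-RTN4R-1 GapmeR1 (0.053), and was above replicate 1 in 3 of 8 groups. ALDH1L2 lost it without replicate 3 of NTC (0.066), of lnc-RTN4R-1 GapmeR1 (0.1) or of lnc-RTN4R-1 GapmeR2 (0.078). In replicate 2 against replicate 1, ASNS, PSAT1, PSPH and MTHFD2 were lower (log2 differences -0.25, -0.23, -0.15 and -0.15). The call of PSAT1 was lost in 9 of 27 fits with 1 library left out, and that of ASNS without either lnc-NKX2-3-1 GapmeR1 library (adjusted p = 0.051). Of the transporters, SLC7A5 was higher in replicate 3 by 0.22 (adjusted p = 0.00784), while SLC3A2 (their shared heavy chain) and the cystine transporter SLC7A11 had 0.02 and -0.02 (adjusted p = 0.786 and 0.822).

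By count, 28 of 40 tested members were higher in replicate 3 than in the average of the others and 2 were lower, 75% past the threshold, beside 28.1% higher and 26% lower among all 16268 genes tested (54.1% in all). The median log2 difference was 0.23 for the members and 0.01 for all genes. In replicate 2 against replicate 1, 1 member was higher and 25 lower (65%), beside 12.7% higher and 10.8% lower (23.4%) among all genes, with medians of -0.16 and 0.00. Every replicate 3 sample was above every other sample in 11 members (ERN1, HSPA5, HSP90B1, DNAJC3, SDF2L1, PDIA4, HYOU1, HERPUD1, SEL1L, SYVN1 and CRELD2), beside 1.72% of all genes, and below in 0, beside 2.91%. The members are mostly well expressed and the background was not matched for level. By list, the members higher in replicate 3 were 7 of 9 sensors and factors, 2 of 3 feedback genes, 2 of 9 metabolic enzymes, 1 of 3 transporters, 9 of 9 chaperones, 4 of 4 degradation genes and 3 of 3 secreted proteins.

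**Figure D2:**
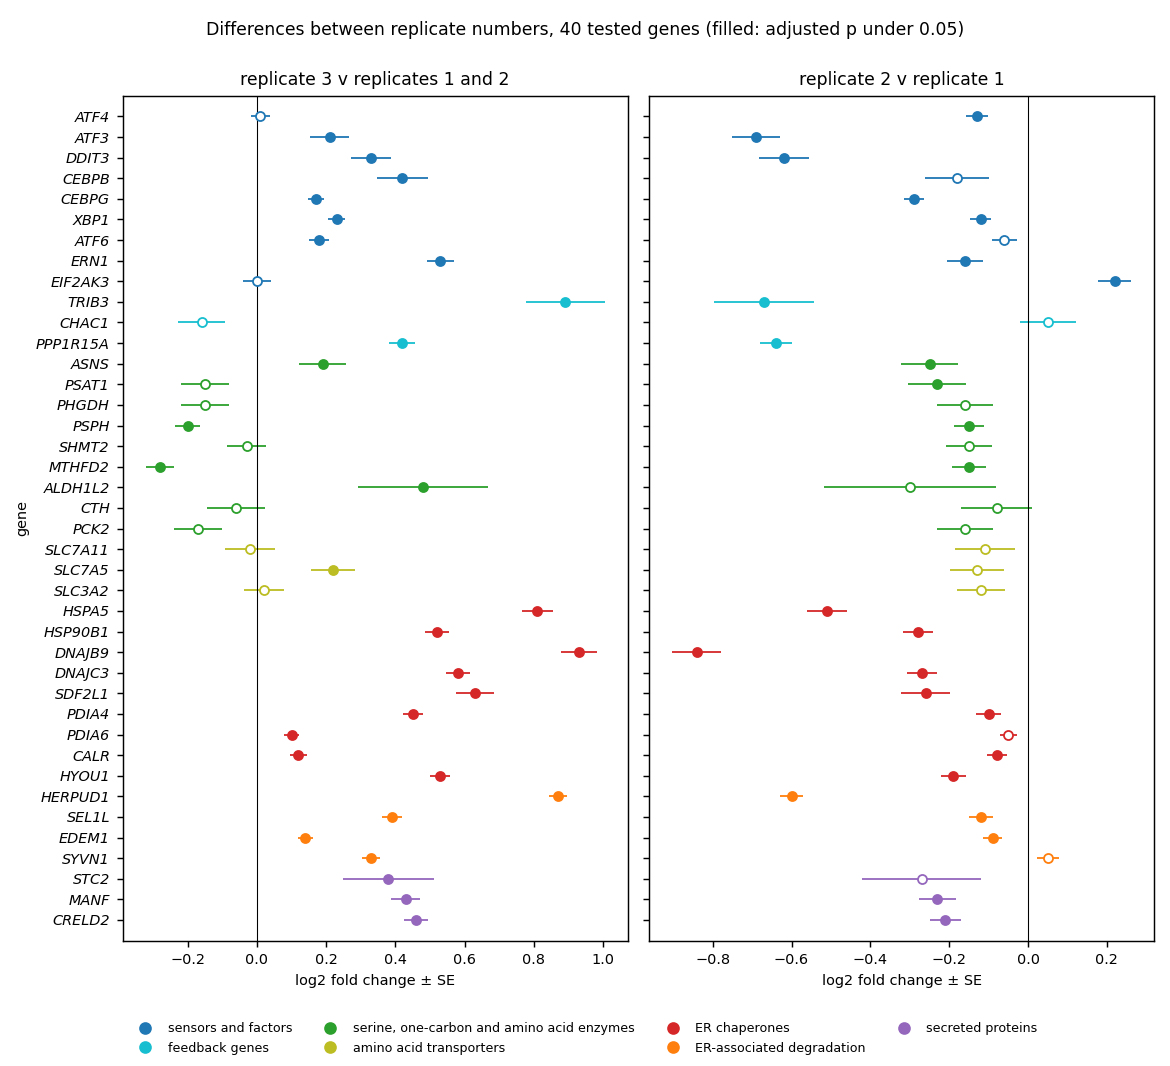
Log2 differences with standard errors (bars) for the 40 tested genes, grouped by role, of replicate 3 against replicates 1 and 2 and of replicate 2 against replicate 1, with filled points past adjusted p 0.05. The ER chaperones lie to the right for replicate 3 (0.10 to 0.93) and to the left for replicate 2 (-0.84 to -0.05), while PSPH and MTHFD2 are lower in both.

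Other genes of these pathways, from lists that exclude the 42, are set here against the same shares of all genes, 28.1% higher and 26% lower in replicate 3 and 12.7% and 10.8% in replicate 2 against 1. These lists, like the 42 genes, were chosen with earlier results of these data known, so their counts are not independent support. Of 29 other unfolded protein response genes, 24 were higher in replicate 3 and 0 lower (median log2 difference 0.23), and those with the smallest adjusted p were WFS1, CREB3L2 and DNAJB11 at 1.07, 0.43 and 0.40. In replicate 2 against 1, 16 of the 29 were lower and 0 higher. Of 17 other ATF4 targets 7 were higher and 1 lower in replicate 3 (VEGFA 0.55, KLHL24 0.46, XPOT 0.25). Of 20 cytosolic tRNA synthetases 4 were higher and 12 lower (WARS1 0.32, KARS1 -0.23, FARSB -0.24), and of 16 other regulators of the integrated stress response 2 were higher and 8 lower (EIF2B3 -0.26, PPP1R15B 0.17, EIF2AK1 -0.13). Of 14 heat shock genes, which answer unfolded protein in the cytosol, 3 were higher and 8 lower. The 3 higher, named after their values were seen, were the heat-inducible HSPA1A and HSPA1B at 0.68 and 0.62 and the co-chaperone BAG3 at 0.61 (adjusted p = 1.68e-08, 1.34e-09 and 0.000301), and HSPD1, HSP90AB1 and HSP90AA1 were lower at -0.31, -0.29 and -0.33. HSPA1A and HSPA1B are near-identical, so reads may be split between them.

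Other measures by replicate number stood as follows, and their part in these differences was not tested. Median total counts were 18811734, 18659467 and 18356481 in replicates 1, 2 and 3, median assigned reads 74.6%, 75.8% and 75.3%, median genes detected 22946, 22320 and 22962, and median mitochondrial share of counts 4.5%, 4.6% and 4.38%. The 5 myeloid markers summed to 4.79 to 7.56 CPM in replicate 1, 4.27 to 6.93 in replicate 2 and 6.84 to 8.9 in replicate 3, mostly from ITGAM (median 4.32 CPM) and CSF1R (median 1.23 CPM). ITGAM and CD14 were higher in replicate 3 by 0.55 and 0.66 (edgeR adjusted p = 3.03e-07 and 0.0104). Over all samples ITGAM was at 2.41 to 6.45 CPM and CSF1R at 0.339 to 2.6 CPM, while CD14, LYZ and FCGR3A were at most 0.925, 0.349 and 0.0521 CPM.

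Across the 10 treatment groups the 5 reference genes had the following levels. Mean ATF4 ran from 622 ± 44.6 CPM (SD, n = 3) with lnc-NKX2-3-1 GapmeR2 to 713 ± 100 CPM (SD, n = 2) with lnc-NKX2-3-1 GapmeR1. In order it was 663 ± 25.6 (n = 2) in medium, 654 ± 28.5 (n = 3) with NTC, 638 ± 13.7 and 638 ± 58.3 (n = 3 each) with lnc-RTN4R-1 GapmeR1 and GapmeR2, 647 ± 37.4 and 685 ± 33.9 (n = 3 each) with those of lnc-TIMM21-5, and 698 ± 25.7 (n = 3) and 697 ± 51 (n = 2) with those of lnc-ASTN1-1. All samples lay between 577 and 784 CPM. Mean DDIT3 was 43.8 ± 20 CPM in medium, 65.6 ± 13.5 with NTC, 60.2 ± 28.7 and 70.6 ± 18.9 with the lnc-NKX2-3-1 GapmeRs, 58.6 ± 11.4 and 43.5 ± 13.1 with those of lnc-RTN4R-1, 70.1 ± 11.3 and 62.6 ± 11.4 with those of lnc-TIMM21-5, and 48.5 ± 8.98 and 62.2 ± 3.63 with those of lnc-ASTN1-1. Medium and lnc-RTN4R-1 GapmeR2 were lowest, within 1 SD of each other.

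In the same order of groups, mean XBP1 was 228 ± 20.5 and 261 ± 20.8 CPM in medium and NTC, then 257 ± 24.5, 283 ± 37.2, 298 ± 19.3, 239 ± 26.4, 285 ± 38.5, 275 ± 34.4, 240 ± 24.7 and 273 ± 4.4 CPM. It was highest with lnc-RTN4R-1 GapmeR1. Mean ASNS was 100 ± 9.54 and 114 ± 8.6 CPM in medium and NTC, then 83.5 ± 20, 102 ± 14.3, 92 ± 12.4, 88.6 ± 28.3, 97.6 ± 12.8, 116 ± 7.55, 123 ± 5.98 and 112 ± 4.08 CPM. It was lowest with lnc-NKX2-3-1 GapmeR1 and highest with lnc-ASTN1-1 GapmeR1. Mean HSPA5 was 268 ± 65.7 and 389 ± 159 CPM in medium and NTC, then 339 ± 94.1, 476 ± 193, 424 ± 138, 432 ± 108, 481 ± 187, 435 ± 210, 377 ± 139 and 479 ± 69.4 CPM. Medium and lnc-NKX2-3-1 GapmeR1 have no replicate 3 sample and lnc-ASTN1-1 GapmeR2 has no replicate 2 sample, so the means are not balanced for number. For HSPA5 the replicate 3 samples set the upper end in each group that has them.

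With both GapmeRs of a lncRNA pooled (5 or 6 samples) against the 5 controls, 0 of 40 members were past the threshold for each lncRNA. Among all genes tested 0.476% were past it with lnc-RTN4R-1 lowered, 0% with lnc-NKX2-3-1, 0.0136% with lnc-ASTN1-1 and 0.00665% with lnc-TIMM21-5. In that order the members at an unadjusted p under 0.05 numbered 11, 4, 1 and 4, and DESeq2 called 1 (CALR), 0, 0 and 0. The 4 comparisons share their controls. Samples with the same replicate number deviated together, so each fit was repeated with the number as a block. The block was not fitted with NTC as the only control. In the same order the block gave 4, 0, 0 and 4 members, beside 1.85%, 0.0127%, 0.85% and 1.26% of all genes, and for lnc-NKX2-3-1 and lnc-ASTN1-1 20 and 9 members had an unadjusted p under 0.05. The 4 for lnc-RTN4R-1 were SDF2L1 (log2 difference 0.42, SE 0.0851, adjusted p = 0.0209), CRELD2 (0.24, adjusted p = 0.0244), CALR (0.23, adjusted p = 0.0427) and ALDH1L2 (-1.11, SE 0.236, adjusted p = 0.0275). For lnc-TIMM21-5 they were SDF2L1 (0.36, SE 0.0794, adjusted p = 0.0105), HSP90B1 (0.15, adjusted p = 0.0145), MANF (0.25, adjusted p = 0.0166) and PDIA4 (0.14, adjusted p = 0.0366).

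Each of the 8 GapmeRs was also compared with the controls alone, and SLC7A11 was past the threshold with 3 of them. SLC7A11 encodes the light chain of the cystine and glutamate exchanger that feeds glutathione synthesis. It was at 117 and 118 CPM in medium and at 114, 116 and 113 CPM with NTC, a mean of 116 ± 1.92 CPM (SD, n = 5). With lnc-ASTN1-1 GapmeR1 it was at 72.3, 81 and 58.9 CPM, all below every control, whereas GapmeR2 against the same lncRNA gave 118 and 115 CPM. The log2 difference of GapmeR1 from the controls was -0.71 (SE 0.115, edgeR adjusted p = 0.000579) and that from GapmeR2 was -0.72 (SE 0.138, adjusted p = 0.00654), or -0.72 and -0.70 with the replicate block (adjusted p = 0.00193 and 0.0239). With replicates 1 and 2 only, the difference from the controls was not past the threshold. On own samples only, the difference from GapmeR2 was not past it. The difference from the controls was past the threshold whichever library was left out (-0.82 to -0.60), whereas that from GapmeR2 lost the call without either GapmeR2 library or without replicate 3 of GapmeR1 (adjusted p = 0.1, 0.094 and 0.057), and with the block it lost it without 4 of 5 libraries.

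SLC7A11 was also lower with 1 GapmeR against lnc-RTN4R-1 and 1 against lnc-NKX2-3-1. It was at 97.6 and 77.3 CPM with lnc-NKX2-3-1 GapmeR1 (log2 difference -0.43, SE 0.13, edgeR adjusted p = 0.0217) and at 116, 106 and 138 CPM with its GapmeR2. It was at 106, 73.9 and 82.1 CPM with lnc-RTN4R-1 GapmeR2 (-0.42, SE 0.113, adjusted p = 0.0171) and at 110, 102 and 100 CPM with its GapmeR1. All 5 samples of the lower GapmeRs lay below every control, but so did those of lnc-RTN4R-1 GapmeR1 and 1 sample of lnc-NKX2-3-1 GapmeR2. Without the block, the direct difference in SLC7A11 between the GapmeRs was not past the threshold by edgeR for lnc-RTN4R-1. For lnc-NKX2-3-1 it was -0.48 (SE 0.14, edgeR adjusted p = 0.0193). That difference was not past the threshold without replicate 2 of GapmeR1 (-0.32, adjusted p = 0.3) or replicate 3 of GapmeR2 (-0.34, adjusted p = 0.13). The call against the controls was lost without replicate 2 of lnc-NKX2-3-1 GapmeR1 (-0.27, adjusted p = 0.38), and that of lnc-RTN4R-1 GapmeR2 without its replicate 2 (-0.32, adjusted p = 0.15) or its replicate 3 (-0.38, adjusted p = 0.098). With the lnc-TIMM21-5 GapmeRs, SLC7A11 was at 122, 97.7 and 120 CPM and at 120, 135 and 117 CPM.

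**Figure D3:**
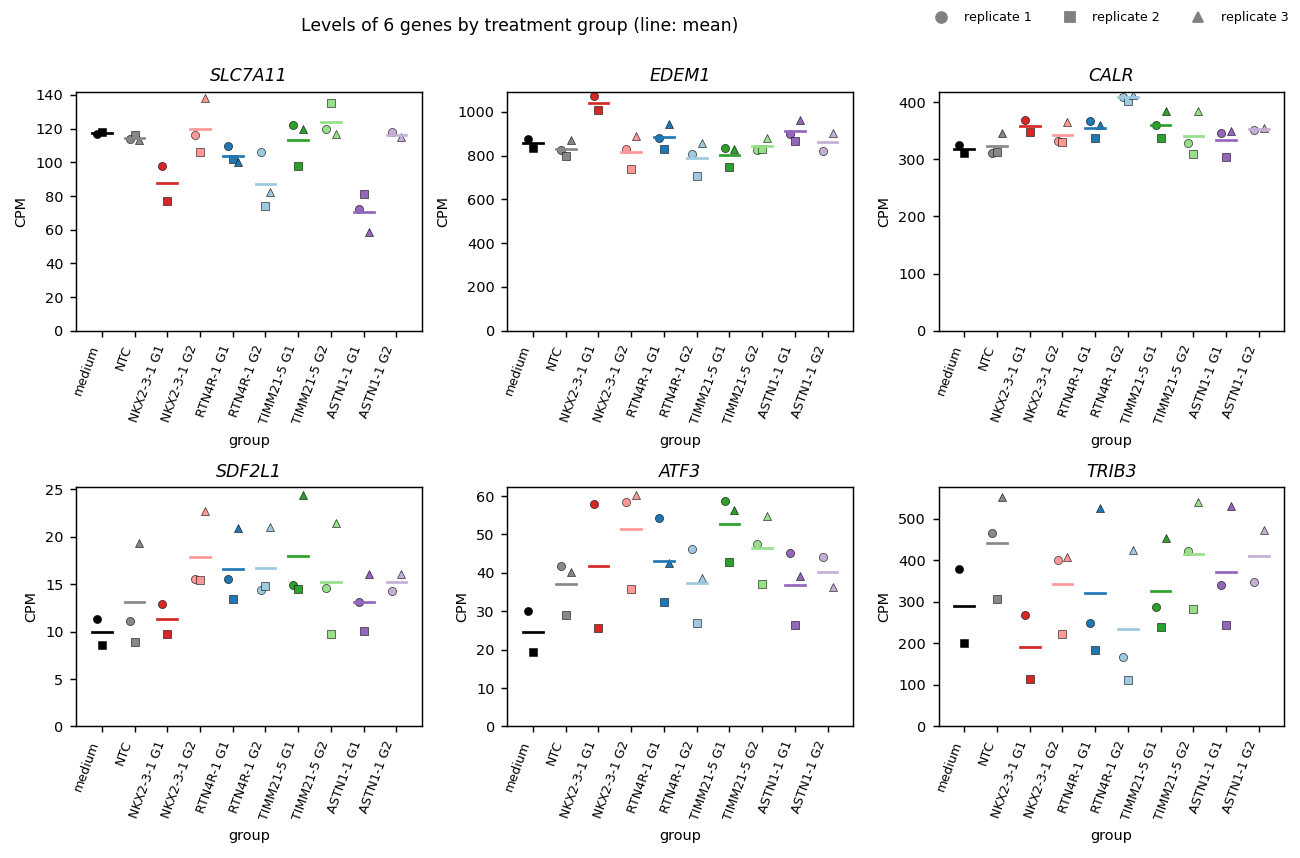
Levels (CPM) of SLC7A11, EDEM1, CALR, SDF2L1, ATF3 and TRIB3 in every sample of the 10 groups, with replicate numbers marked. SLC7A11 lay at 58.9 to 81 CPM with lnc-ASTN1-1 GapmeR1 against 113 to 118 CPM in the controls, and CALR at 403 to 413 CPM with lnc-RTN4R-1 GapmeR2 against 311 to 346 CPM.

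The GapmeRs that went with lower SLC7A11 are listed here with the partner against the same lncRNA. Capitals mark the longest run of at least 11 bases complementary to the SLC7A11 gene (chr4:138164097-138242349, minus strand, hg38).
lnc-ASTN1-1 GapmeR1: tAATCTGCCAGGAgtg
lnc-ASTN1-1 GapmeR2: gtctgaagtaatgga
lnc-NKX2-3-1 GapmeR1: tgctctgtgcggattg
lnc-NKX2-3-1 GapmeR2: ctgATTTTTAGTAGtg
lnc-RTN4R-1 GapmeR1: gcattcatgggttaag
lnc-RTN4R-1 GapmeR2: tgctgagacatctagg

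lnc-ASTN1-1 GapmeR1 had a run of 12 of its 16 bases, complementary to an intron of SLC7A11 (chr4:138204740-138204751), and 338 of the 16268 tested genes (2.08%) held a run as long. lnc-NKX2-3-1 GapmeR2, with which SLC7A11 was not past the threshold, had a run of 11 in an exon (chr4:138170490-138170500), as long as in 68% of genes. The other 4 listed had no run of 11 or more in SLC7A11. Both lnc-TIMM21-5 GapmeRs, not listed, had a run of 11 in an intron, as long as in 15.6% of genes each. SLC7A11 was not past the threshold with either of them. A run of letters is a description, and pairing or cutting of SLC7A11 RNA was not tested.

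With lnc-NKX2-3-1 GapmeR1, 5 of 40 members were past the threshold (12.5%), fewer than the 19.7% of all genes. EDEM1 was at 1073 and 1009 CPM against 796 to 875 CPM in the controls (log2 difference 0.28, SE 0.0832, edgeR adjusted p = 0.017). EIF2AK3 was at 147 and 165 CPM against 109 to 142 CPM (0.32, SE 0.112, adjusted p = 0.0484). SHMT2, the mitochondrial serine hydroxymethyltransferase, was at 262 and 217 CPM against 276 to 328 CPM (-0.37, adjusted p = 0.0225), and STC2 at 1.44 and 0.68 CPM against 2.36 to 2.97 CPM (-1.32, SE 0.372, adjusted p = 0.0139). Each treated sample lay outside the controls in these 4 genes. All 5 calls were lost without replicate 2 of this GapmeR, and EDEM1 and EIF2AK3 also without its replicate 1 (adjusted p = 0.15 and 0.071). EIF2AK3 was past the threshold in only 1 of 7 fits with 1 library left out. With the block 13 members were past the threshold (4 higher and 9 lower, 32.5%), beside 17.6% higher and 18.2% lower (35.8%) of all genes. ERN1 and ATF6 were lower (-0.42 and -0.22, adjusted p = 0.00012 and 0.0025), as were TRIB3 and PSPH (-0.85 and -0.27, adjusted p = 0.00981 and 0.0018), while ATF3 and CALR were higher (0.39 and 0.16, adjusted p = 0.00772 and 0.00524). ATF3 rests on replicate 1 of this GapmeR, at 57.8 CPM, since replicate 2 was at 25.6 CPM against 29 CPM with NTC, and without replicate 1 the difference was 0.08 (adjusted p = 0.68). EIF2AK3, EDEM1 and ERN1 kept the call with the block whichever library was left out, and the count was 5 without replicate 2.

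With lnc-NKX2-3-1 GapmeR2, 0 of 40 members were past the threshold by edgeR (3 at an unadjusted p under 0.05, 0 by DESeq2, 0.0307% of all genes), and 10 with the block, all higher (25%), beside 1.68% higher and 1.48% lower (3.17%) of all genes. SDF2L1 was at 15.5, 15.4 and 22.7 CPM in replicates 1, 2 and 3, against 11.3 and 11.1 in the controls of replicate 1, 8.6 and 8.9 in those of replicate 2 and 19.3 in that of replicate 3. It was above the controls of its own number in each replicate, with a log2 difference of 0.52 with the block (SE 0.0948, adjusted p = 0.00142). HSPA5, HERPUD1, DNAJB9, DNAJC3 and HSP90B1 were higher by 0.38, 0.24, 0.44, 0.24 and 0.23 (adjusted p = 0.0127, 0.00202, 0.0108, 0.0172 and 0.0394), and XBP1, MANF and CRELD2 by 0.16, 0.29 and 0.24 (adjusted p = 0.0258, 0.0216 and 0.0173). ATF3 was higher by 0.68 (SE 0.0941, adjusted p = 0.000285). Without replicate 2 of medium the count fell to 2, and it was 4 or 5 without replicate 3 or 2 of this GapmeR or replicate 1 of medium. ATF3 and SDF2L1 kept the call whichever library was left out. The calls with the block were not tested against NTC alone. In replicates 1 and 2 ATF3 was at 30 and 19.3 CPM in medium and at 41.9 and 29 CPM with NTC. SDF2L1 was similar in both.

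Between both lnc-NKX2-3-1 GapmeRs, EDEM1 (0.33, SE 0.0914, edgeR adjusted p = 0.0144) and SLC7A11 were past the threshold, 2 of 40 (5%) beside 17.8% of all genes. EDEM1 lost the call without either replicate of GapmeR1 (adjusted p = 0.11 and 0.052) or replicate 2 of GapmeR2 (adjusted p = 0.069). With the block 12 were (30%, 3 higher and 9 lower with GapmeR1), beside 16.2% higher and 17.2% lower (33.4%) of all genes. HSP90B1, SDF2L1, PDIA4, DNAJC3, HERPUD1, SEL1L and ERN1 were lower with GapmeR1 by -0.32, -0.44, -0.22, -0.24, -0.19, -0.21 and -0.50 (adjusted p from 3.86e-05 to 0.0112), and ATF4 was higher by 0.18 (adjusted p = 0.013). EDEM1 and ERN1 kept the call whichever library was left out, and the count was 5 without replicate 2 of GapmeR1 and 8 without replicate 3 of GapmeR2. GapmeR1 has no replicate 3 sample.

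With lnc-RTN4R-1 GapmeR2, 5 of 9 chaperones were higher and 5 of 9 metabolic enzymes lower in the fit with the block. Without replicate 2 of this GapmeR all 5 enzymes lost the call (adjusted p = 0.24 for ASNS and PSPH, 0.26 for PSAT1, 0.12 for MTHFD2 and 0.076 for ALDH1L2), as did HSPA5, PDIA4 and PDIA6 (0.12, 0.17 and 0.19), which leaves CALR and SDF2L1 of these. CALR was at 410, 403 and 413 CPM, above all 5 controls (311 to 346 CPM), with a log2 difference of 0.33 (SE 0.0682, edgeR adjusted p = 0.00182) that was past the threshold whichever library was left out. CALR and SLC7A11 were the 2 calls without the block (5%, beside 9.56% of all genes). With the block 21 were past it (52.5%, 7 higher and 14 lower), beside 14% higher and 12.3% lower (26.3%) of all genes. The 7 higher were the chaperones CALR (0.32), HSPA5 (0.27), SDF2L1 (0.42), PDIA4 (0.16) and PDIA6 (0.10), and the secreted CRELD2 (0.29) and MANF (0.22), with adjusted p from 3.06e-08 to 0.0299. Among the 14 lower, TRIB3 was at 167 CPM in replicate 1 against 379 and 465 in the controls of that number, at 112 against 200 and 306 in replicate 2, and at 425 against 553 in replicate 3. Its log2 difference with the block was -0.93 (SE 0.204, adjusted p = 0.00305).

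DDIT3 was at 44.9, 29.7 and 55.8 CPM with that GapmeR, below the controls of its own number except medium in replicate 2 (29.6 CPM), with a log2 difference of -0.42 with the block (SE 0.104, adjusted p = 0.00567). ERN1, ATF6, CEBPG, HERPUD1 and EDEM1 fell by 0.39, 0.22, 0.18, 0.18 and 0.12 on the log2 scale (adjusted p = 8.4e-05, 0.000991, 0.00043, 0.00336 and 0.0116). ASNS, PSAT1, PSPH, MTHFD2, ALDH1L2, SLC7A11 and STC2 made up the rest. Without its replicate 2 the count was 9 and without its replicate 1 it was 14. DDIT3, TRIB3, CEBPG, ATF6, ERN1, HERPUD1, CALR, SDF2L1 and CRELD2 kept the call whichever library was left out. On the other lists in the same fit, 11 of 20 tRNA synthetases and 7 of 17 other ATF4 targets were lower with 0 higher. CARS1 is on both of these lists. Of 14 heat shock genes 8 were higher with 0 lower, and of 29 other unfolded protein response genes 2 were higher and 2 lower. Among all genes 14% were higher and 12.3% lower. Unlike the members, these lists were not refitted with a library left out.

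With lnc-RTN4R-1 GapmeR1, 0 of 40 members were past the threshold by edgeR (4 at an unadjusted p under 0.05, 0 by DESeq2, 2.32% of all genes), and 7 with the block (17.5%, 6 higher and 1 lower), beside 5.71% higher and 3.09% lower (8.8%) of all genes. XBP1 was at 293, 282 and 319 CPM, above the controls of each number (at most 261, 241 and 282 CPM), by 0.24 with the block (SE 0.0409, adjusted p = 4.97e-05). SDF2L1, ATF3, EIF2AK3, CALR and CRELD2 were higher by 0.42, 0.43, 0.29, 0.13 and 0.18 (adjusted p = 0.00249, 0.00494, 0.00509, 0.0385 and 0.0438) and PSPH lower by -0.19 (adjusted p = 0.0349). XBP1 and SDF2L1 kept the call whichever library was left out, whereas CALR and PSPH kept it in 3 of 8 such fits and CRELD2 in 0. The count was 2 without replicate 1 of this GapmeR, 3 without replicate 1 of medium, and 4 without replicate 2 of either.

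Between both lnc-RTN4R-1 GapmeRs 0 of 40 were past the threshold by edgeR (6 at an unadjusted p under 0.05, 1, XBP1, by DESeq2, 9.09% of all genes), and 12 with the block (30%, 9 higher and 3 lower with GapmeR1), beside 13.3% higher and 13% lower (26.3%) of all genes. XBP1 was higher with GapmeR1 by 0.33 (SE 0.046, adjusted p = 3.4e-07), HERPUD1 by 0.31 (adjusted p = 1.51e-05), DDIT3 by 0.46 (adjusted p = 0.0054), DNAJB9 by 0.41 (adjusted p = 0.00504), EIF2AK3 by 0.26 (adjusted p = 0.00995), EDEM1 by 0.18 (adjusted p = 0.00128) and CEBPG by 0.15 (adjusted p = 0.00843). CALR, PDIA6 and PDIA4 were lower, by -0.19, -0.15 and -0.16 (adjusted p = 0.00088, 0.00388 and 0.0317). XBP1, HERPUD1, DDIT3, EDEM1, CALR and PDIA6 kept the call whichever library was left out, and the count was 8 without replicate 3 of GapmeR1 or replicate 2 of GapmeR2.

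With lnc-TIMM21-5 GapmeR1, 0 of 40 members were past the threshold by edgeR (3 at an unadjusted p under 0.05, 0 by DESeq2, 0.209% of all genes), and 12 with the block, all higher (30%), beside 1.78% higher and 1.2% lower (2.98%) of all genes. They held 7 of the 9 chaperones. SDF2L1 was at 14.9, 14.5 and 24.4 CPM, above the controls of its own number each time, by 0.52 with the block (SE 0.0937, adjusted p = 0.00067). HSPA5 was at 444, 315 and 683 CPM, against at most 348, 254 and 564 CPM in those controls (0.39, SE 0.0775, adjusted p = 0.00788). CRELD2, HERPUD1, MANF, DNAJB9, XBP1, PDIA4 and CALR were higher by 0.31, 0.21, 0.32, 0.41, 0.17, 0.19 and 0.15 (adjusted p = 0.00113, 0.00524, 0.00589, 0.0122, 0.0151, 0.0198 and 0.0298). The count was 4 without replicate 2 of this GapmeR, and 5 without its replicate 3 or replicate 2 of medium. ATF3, SDF2L1 and CRELD2 kept the call whichever library was left out, and CALR and HYOU1 in 2 of 8 such fits.

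ATF3 was at 58.7, 42.9 and 56.4 CPM with lnc-TIMM21-5 GapmeR1, higher by 0.72 with the block (SE 0.093, adjusted p = 6.22e-05). It was the 1 member past the threshold with lnc-TIMM21-5 GapmeR2, at 47.5, 37.2 and 54.9 CPM (0.54, SE 0.0941, adjusted p = 0.00522, 2.5% of members beside 0.584% of all genes). That call was lost without replicate 1 or 2 of medium (adjusted p = 0.068 and 0.069) or replicate 3 of the GapmeR (0.074). Without the block that GapmeR gave 0 of 40 by edgeR (1 at an unadjusted p under 0.05, 0 by DESeq2, 0.0676% of all genes). In the controls ATF3 was lowest in medium, at 30 and 19.3 CPM, against 41.9, 29 and 40.1 CPM with NTC. The lnc-TIMM21-5 values lay above NTC of the same number in all 6 samples. Between both GapmeRs 0 members differed by edgeR (0 at an unadjusted p under 0.05, 0 by DESeq2, 0.141% of all genes), and 0 with the block (4 at an unadjusted p under 0.05, 0 by DESeq2, 0.375% of all genes).

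With lnc-ASTN1-1 GapmeR1, SLC7A11 was the 1 member past the threshold (2.5%, beside 1.2% of all genes). The block added ERN1, at 41.1, 37.5 and 59.2 CPM against 47.8 and 50.2, 40.9 and 53.1, and 68.1 CPM in the controls of the same numbers (-0.26, SE 0.0705, adjusted p = 0.0272), 2 of 40 (5%) beside 4.77% of all genes. ERN1 lost the call without any 1 replicate of this GapmeR or replicate 2 of NTC (adjusted p = 0.17, 0.096, 0.076 and 0.086). With lnc-ASTN1-1 GapmeR2, 0 of 40 were past it by edgeR (0 at an unadjusted p under 0.05, 0 by DESeq2, 0.0184% of all genes), and 0 with the block (2 at an unadjusted p under 0.05, 0 by DESeq2, 0.135% of all genes). The direct difference held SLC7A11 alone with and without the block, beside 1.67% and 0.553% of all genes.

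NTC against medium tests the non-targeting GapmeR itself. By edgeR 0 of 40 members and 0% of all genes were past the threshold (0 members at an unadjusted p under 0.05, 0 by DESeq2). With the block PPP1R15A was, at 112, 82.8 and 128 CPM with NTC and 95.6 and 50.6 CPM in medium (0.45, SE 0.0823, adjusted p = 0.0205), 1 of 40 (2.5%) beside 0.0676% of all genes. It kept the call in 2 of 5 fits with 1 library left out, and the count was 0 to 3. Medium has no replicate 3, and all comparisons with the controls share these 5 samples.

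**Figure D4:**
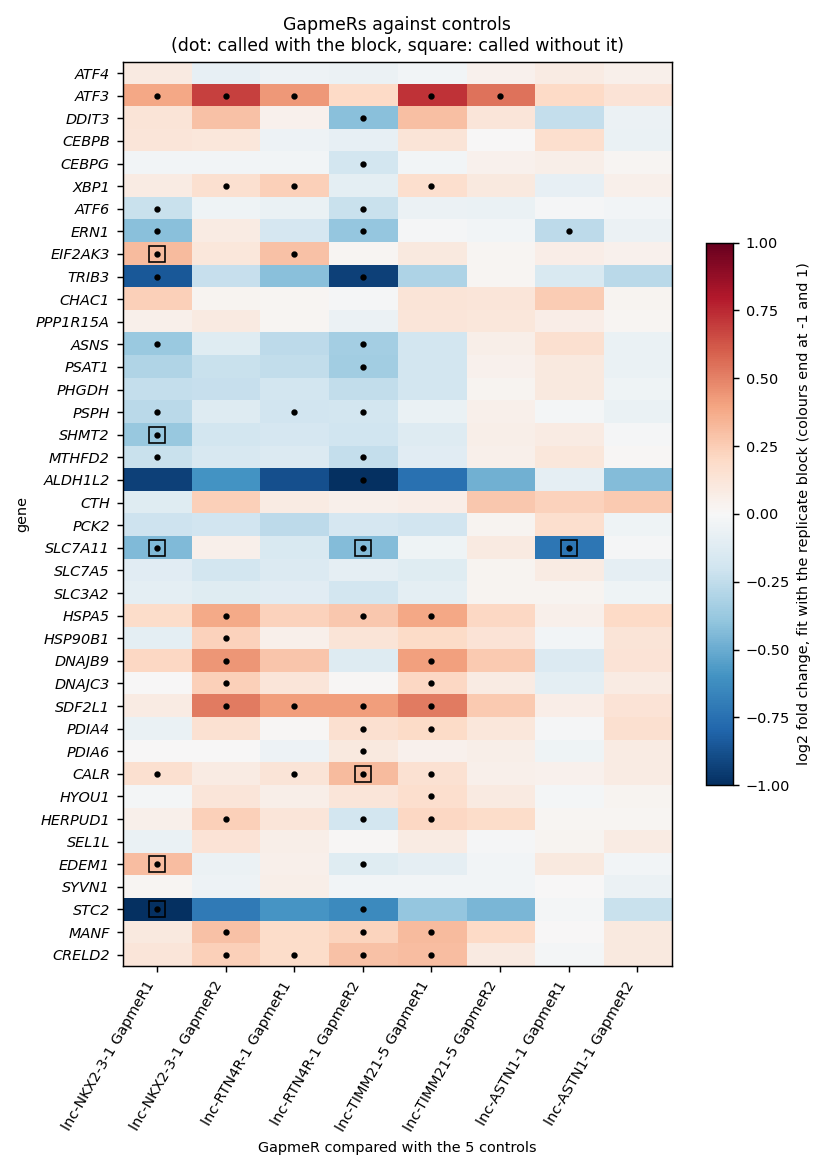
Log2 differences of the 40 tested genes (rows, by role) for each GapmeR against the controls (columns), from the fit with the replicate number as a block, with blue for lower and red for higher. A dot marks an adjusted p under 0.05 with the block and a square one without it, so that lnc-RTN4R-1 GapmeR2 holds 21 dots and lnc-ASTN1-1 GapmeR2 none.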

How the data were processed

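RNA sequencing counts of 27 REH samples were analysed. The authors aligned reads to hg38 with STAR, and each deposited file gives counts of uniquely mapped reads per gene in 3 columns, unstranded and for each strand. Column 4, the strand that held the gene reads, was used. The labels name a stranded library of ribosome-depleted total RNA and the methods name poly-A selection, so the preparation is not settled. The labels gave each sample's group and number. GENCODE v44 matched 56434 of 60619 gene identifiers. The lncRNA identifiers came from the study's list of transcripts. The members and gene lists were chosen with earlier results of these data known.

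The test was the quasi-likelihood test of edgeR 4.0.16 on TMM-scaled counts (limma 3.58.1, R 4.3.3), after a filter on low counts (filterByExpr, minimum count 10, minimum total 15), with Benjamini-Hochberg adjustment over all genes tested and a threshold of 0.05. Both GapmeRs of a lncRNA were compared with the 5 controls on their own samples without covariates. Single GapmeRs, the direct differences and NTC against medium came from 1 fit of all 27 samples with 10 groups, and replicate numbers from a fit with group as a covariate. Levels are CPM on TMM-scaled library sizes, and SEs were derived from the F statistic. Python 3.11.15, numpy 2.4.6, pandas 2.3.3 and matplotlib 3.10.9 were used for the rest. The functions were tested on simulated data.

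All 42 genes were named by role. Of each comparison the members past the threshold were named, up to the 10 with the smallest adjusted p, and beyond these only as completions of a role. Up to 3 genes were named per other list, and ATF4, DDIT3, ASNS, XBP1 and HSPA5 in every group.

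Over 24 pairs of replicates chi-square per degree of freedom was 3.28 to 16.1, so each file was counted as a separate sample. Deviations from the group means correlated by 0.263 on average over 109 pairs of samples with the same number in different groups (94 over 0.1, lowest -0.035) and by -0.130 over 218 pairs with different numbers, and 24 of 27 samples were closest to their own number. The methods place the replicates on different days, and the labels do not say that a number marks a shared day. P-values measure the spread between these samples, which may be partly technical.

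Alternatives were DESeq2 1.42.0, its size factors, no filter, at least 10 counts in every sample, unstranded counts, the replicate block, replicates 1 and 2 only, NTC as the only control, all samples in 1 fit, own samples only, the 7 groups with all 3 numbers, and each replicate left out.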

Additional observations from a re-analysis of the deposited data

Results flagged for a closer look

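Samples far from the rest of their set by the gap between neighbouring values were found in 23 of 320 sets of 5 to 10 samples. A set held the controls, both GapmeRs of a lncRNA or a replicate number, for a single gene. Chance gives about 1 in 20 where samples are alike, but these sets mix treatments or replicate numbers. Values are CPM. Among the 5 controls NTC replicate 3 stood apart in 6 genes. It was low in PSAT1 at 150 (others 190 to 203), in PHGDH at 444 (549 to 589) and in PCK2 at 67.5 (86.9 to 93.7), and high in PDIA4 at 173 (122 to 125), HYOU1 at 360 (206 to 231) and SEL1L at 181 (128 to 137). It is the only control with number 3.

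Among the lnc-NKX2-3-1 samples SEL1L was high in GapmeR2 replicate 3 at 208 (124 to 144). Among the lnc-RTN4R-1 samples ATF6 was high in GapmeR1 replicate 3 at 86.6 (66.1 to 73.1) and PSAT1 low in GapmeR2 replicate 2 at 114 (147 to 166). Among the lnc-ASTN1-1 samples GapmeR1 replicate 2 was low in CEBPG at 148 (169 to 176), PPP1R15A at 68.2 (109 to 122) and CALR at 304 (347 to 355), and it is the only replicate 2 sample of that set. STC2 was low there in GapmeR2 replicate 1 at 2.37 (2.68 to 2.77).

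Among replicate 1 samples ATF3 was low in medium at 30 (41.9 to 58.7), SLC7A11 low with lnc-ASTN1-1 GapmeR1 at 72.3 (97.6 to 122) and EDEM1 high with lnc-NKX2-3-1 GapmeR1 at 1073 (809 to 900). Among replicate 2 samples lnc-RTN4R-1 GapmeR2 was low in CHAC1 at 31.2 (38.1 to 45) and high in PDIA6 at 487 (423 to 454) and CALR at 403 (304 to 348). Among replicate 3 samples it was low in CEBPG at 153 (166 to 176) and ATF6 at 72.9 (81.2 to 89.1), and lnc-NKX2-3-1 GapmeR2 was low in SHMT2 at 234 (276 to 313) and STC2 at 1.34 (2.14 to 2.97).

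The GapmeRs against 1 lncRNA differed from each other by the edgeR test of the direct difference for lnc-NKX2-3-1 in SLC7A11 (log2 difference -0.48) and EDEM1 (0.33), and for lnc-ASTN1-1 in SLC7A11 (-0.72).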

How the results depend on the processing

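Signs were compared over the alternatives run for each comparison, except the fits with a replicate left out. Of the member values past the threshold in a comparison, with or without the block, none changed sign. Other members did: with the block those above 0 went from 11 to 17 of 40 for lnc-NKX2-3-1 GapmeR1 and from 35 to 27 for both lnc-ASTN1-1 GapmeRs pooled. Counts below are members past the threshold, of 40, and the cause of their shifts was not tested. With the replicate block they were 4 for both lnc-RTN4R-1 GapmeRs pooled and 4 for both lnc-TIMM21-5 GapmeRs pooled, and for single GapmeRs 13 and 10 (lnc-NKX2-3-1), 7 and 21 (lnc-RTN4R-1), 12 and 1 (lnc-TIMM21-5) and 2 (lnc-ASTN1-1 GapmeR1). The direct differences gave 12 for lnc-RTN4R-1 and 12 for lnc-NKX2-3-1, and NTC against medium 1. The block with DESeq2, chosen after seeing the data, gave 12 and 9, 7 and 21, 11 and 1, and 2 for the same single GapmeRs, 11 for the direct difference of lnc-RTN4R-1, 14 for that of lnc-NKX2-3-1 and 4 for NTC against medium. The block in 1 fit of all samples, also chosen after seeing the data, gave 16 for lnc-RTN4R-1 pooled, 16 for lnc-NKX2-3-1 pooled, 1 for lnc-ASTN1-1 pooled and 9 for lnc-TIMM21-5 pooled. The same fit without the block gave 1 each for lnc-RTN4R-1, lnc-NKX2-3-1 and lnc-ASTN1-1.

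DESeq2 gave 1 for lnc-RTN4R-1 pooled and 1 for its direct difference. With replicates 1 and 2 only the counts were 5 for lnc-RTN4R-1 pooled, 9 for lnc-NKX2-3-1 GapmeR1, 2 and 13 for the lnc-RTN4R-1 GapmeRs, 0 for lnc-ASTN1-1 GapmeR1, and 1 and 0 for the direct differences of lnc-RTN4R-1 and lnc-ASTN1-1. Without a filter (34666 genes) they were 10 and 8 (lnc-NKX2-3-1), 8 and 12 (lnc-RTN4R-1), 9 and 4 (lnc-TIMM21-5) and 4 (lnc-ASTN1-1 GapmeR2), with 14 (lnc-NKX2-3-1), 5 (lnc-RTN4R-1), 1 (lnc-TIMM21-5) and 3 (lnc-ASTN1-1) for the direct differences and 8 for NTC against medium. On own samples only, the direct differences gave 1 for lnc-NKX2-3-1 and 0 for lnc-ASTN1-1.

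With each replicate left out, the pooled counts ranged from 0 to 1 for lnc-RTN4R-1 and were 0 to 0 for the others. Single GapmeRs gave 0 to 5 (lnc-NKX2-3-1 GapmeR1), 1 to 4 (lnc-RTN4R-1 GapmeR2), 1 to 1 (lnc-ASTN1-1 GapmeR1) and 0 to 0 (the other 5). The direct differences gave 0 to 2 (lnc-NKX2-3-1), 0 to 1 (lnc-RTN4R-1 and lnc-ASTN1-1) and 0 to 0 (lnc-TIMM21-5), and NTC against medium 0 to 0. Replicate 3 against the rest gave 29 to 34 and replicate 2 against replicate 1 gave 23 to 31. With the block and each replicate left out, also chosen after seeing the data, single GapmeRs gave 5 to 14 and 2 to 10 (lnc-NKX2-3-1), 2 to 8 and 9 to 27 (lnc-RTN4R-1), 4 to 12 and 0 to 2 (lnc-TIMM21-5) and 1 to 3 (lnc-ASTN1-1 GapmeR1). ALDH1L2 and STC2 rest on at most 25 and 62 counts per sample. The block was not refitted with libraries left out for the pooled comparisons, nor with NTC as the only control for any comparison.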
